A study of Mus musculus with 3 samples.

Results

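Protein tyrosine phosphatases remove phosphate from tyrosine residues and so oppose tyrosine kinases. The classical family shares a catalytic domain built round an active-site cysteine, and falls into receptor types, which cross the plasma membrane, and non-receptor types, which lie inside the cell. In macrophages these enzymes set the strength of signals from the CSF-1 receptor, Fc receptors, integrins and cytokine receptors, and some of them act through Src-family kinases. The genes described here were 10 of the family, the receptor types Ptpro, Ptprc, Ptpre, Ptprj and Ptprs and the non-receptor types Ptpn1, Ptpn2, Ptpn6, Ptpn11 and Ptpn22, out of 20660 genes that the array probes name. They were found by matching the RefSeq accession of each probe to these symbols, which gave 16 probes, and the genes were picked with their response to adiponectin already known. All values of treated over untreated cells for these 10 genes are therefore a description. No p-value is given for them, and their calls in the fit over all genes are counted once, beside the share of all genes called.

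Adiponectin is a hormone released by fat tissue, and macrophages are among the cells that respond to it. RNA came from bone marrow-derived macrophages of wild-type C57BL/6J mice, matured with L929-conditioned medium, which supplies CSF-1, and then kept in low serum. Treated cells received adiponectin at 12 µg/ml for 18 h, and untreated cells did not. Per the labels, each of the 3 arrays (biological replicates) held treated RNA in one dye and untreated RNA in the other, and the dyes were swapped on replicate 2, where treated RNA was in Cy5 rather than Cy3. Nothing in the labels says whether the replicates came from separate mice, so p-values measure the spread between these arrays.

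Across arrays, 43.9% to 47.5% of probes were well above background in treated channels, against 53.4% to 54.3% in untreated channels. Ratios of the 13181 tested genes correlated at r = 0.943 to 0.968 between arrays, where genes are not independent replicates. Of 10 macrophage markers, 9 were measured, and all 9 were well above background in every channel reading. In limma 2 of these markers rose and 7 fell, beside 24.5% and 46.1% of all tested genes. The 2 that rose were Cd14 and Spi1, at mean log2 ratios of treated over untreated of 0.97 and 0.79. The summed level of all 9 measured macrophage markers, a linear normalised intensity, was 172165 to 213848 in treated cells and 354280 to 398718 in untreated cells. Of markers of other cell types, measured genes numbered 7 of 8 for neutrophils, 2 of 6 for B cells, 2 of 6 for T cells, 3 of 5 for dendritic cells, 3 of 5 for fibroblasts, 0 of 4 for mast cells and basophils and 0 of 4 for erythroid cells. The summed neutrophil markers were at 26556 to 41628 in treated cells and 25145 to 28962 in untreated cells. The measured markers of B cells summed to 437 to 479 in treated cells and 1267 to 1338 in untreated cells, and those of T cells to 1026 to 1207 in treated cells and 567 to 583 in untreated cells. For dendritic cells the sums were 43804 to 49034 in treated cells and 35095 to 41415 in untreated cells, and for fibroblasts 419 to 471 in treated cells and 304 to 343 in untreated cells. Only the neutrophil sums overlapped between the groups, but readings of 75.6% of all tested genes did not overlap either. Limma called 1 of 2 measured B-cell markers lower. It called 2 of 2 T-cell, 1 of 3 dendritic-cell and 2 of 3 fibroblast markers higher. Of the 7 measured neutrophil markers, 3 were called higher and 3 lower. The part of these shifts in the values below was not tested, and in such bulk RNA fewer cells of a type and less RNA per cell cannot be told apart.

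Most of the 10 phosphatase genes were lower in treated cells, and Ptpro and Ptpn22 were lower by far more than the rest. The mean log2 ratio of treated over untreated was below 0 for 8 genes and above 0 for Ptpn2 and Ptpre. It was at or below -1 for 4 genes, Ptpro, Ptpn22, Ptprs and, by its brightest probe alone, Ptprj, while 6 lay within 2-fold of untreated cells. Of all tested genes 12.6% were at or below -1. The median over the 10 genes was -0.75, against -0.17 over all 13181 tested genes. Limma called 2 of them higher and 8 lower at an adjusted p under 0.05. Of all tested genes 70.6% were called, 24.5% higher and 46.1% lower, and that count of the 10 genes carries no weight because the genes were chosen on the same contrast. The other gene lists below were also drawn up with earlier results of these data known, so their counts are a description too. All 10 had the same sign on all 3 arrays, as 82.1% of tested genes did, and non-overlapping treated and untreated readings, as 75.6% did.

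**Figure D1:**
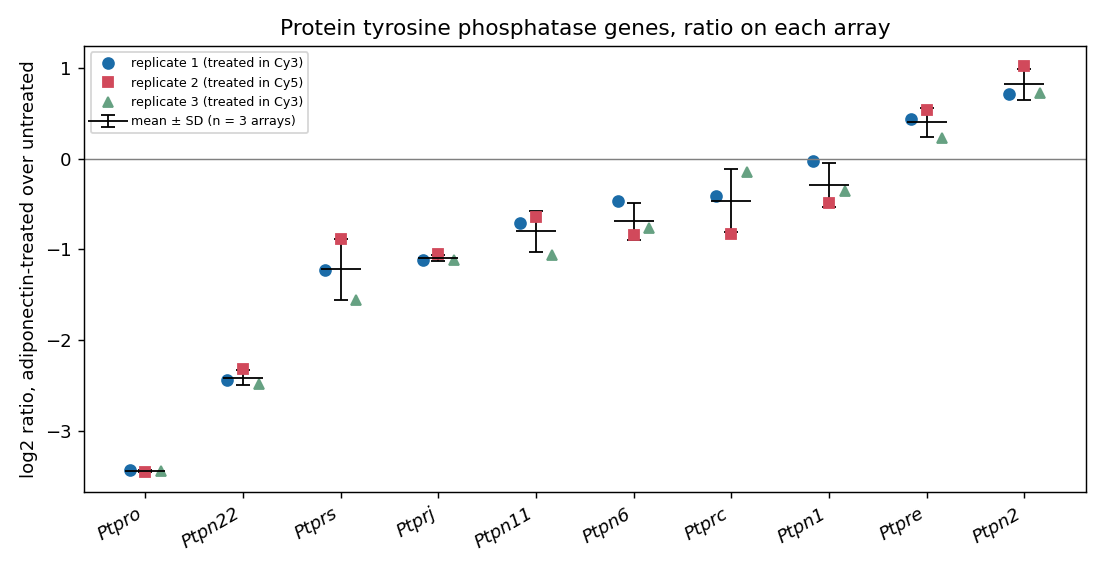
Log2 ratio of adiponectin-treated over untreated macrophages (vertical axis) for the brightest probe of each of the 10 phosphatase genes, one symbol per array, with bars for the mean ± SD of 3 arrays. Ptpro and Ptpn22 sit at -3.44 and -2.42, and only Ptpre and Ptpn2 lie above 0.

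The promoter windows of 4 genes are shown because these genes span the response: Ptpro and Ptpn22 had the lowest ratios, Ptprc is the common leukocyte phosphatase with a small one, and Ptpre was higher in treated cells. Each is the 250 bases upstream of the most upstream RefSeq start in build GRCm38.p6, read 5′ to 3′ along the gene. They lie at chr6:137252049-137252298 (Ptpro, plus strand), chr3:103859545-103859794 (Ptpn22, plus strand), chr1:138175306-138175555 (Ptprc, minus strand) and chr7:135537574-135537823 (Ptpre, plus strand). Capitals mark a match, on either strand, to the core of the myeloid factor PU.1 (GAGGAA), an AP-1 site (TGANTCA), an NF-kB site without its last base (GGGNNTTTC), a STAT site (TTCNNNGAA) or a TATA box (TATAAA).
Ptpro: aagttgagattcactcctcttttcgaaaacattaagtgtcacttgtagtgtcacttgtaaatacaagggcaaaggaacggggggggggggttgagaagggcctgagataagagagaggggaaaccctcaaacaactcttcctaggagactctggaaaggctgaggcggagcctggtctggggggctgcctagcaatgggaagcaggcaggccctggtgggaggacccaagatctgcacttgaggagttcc
Ptpn22: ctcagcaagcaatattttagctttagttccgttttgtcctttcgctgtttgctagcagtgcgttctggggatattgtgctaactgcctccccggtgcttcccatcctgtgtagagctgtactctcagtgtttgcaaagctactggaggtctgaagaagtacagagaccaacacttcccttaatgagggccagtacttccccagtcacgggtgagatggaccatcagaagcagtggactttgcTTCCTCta
Ptprc: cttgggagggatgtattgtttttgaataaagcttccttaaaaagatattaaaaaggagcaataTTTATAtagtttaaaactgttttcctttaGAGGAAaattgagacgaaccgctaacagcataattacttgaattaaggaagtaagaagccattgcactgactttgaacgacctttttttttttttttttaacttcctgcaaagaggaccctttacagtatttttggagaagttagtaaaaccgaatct
Ptpre: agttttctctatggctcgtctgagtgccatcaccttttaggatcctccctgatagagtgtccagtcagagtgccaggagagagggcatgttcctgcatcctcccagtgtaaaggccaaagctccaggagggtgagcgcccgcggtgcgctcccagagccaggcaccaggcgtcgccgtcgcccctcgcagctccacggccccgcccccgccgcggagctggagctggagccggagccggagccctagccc
The Ptpn22 window held a PU.1 core on the strand opposite to the one shown, which begins 8 bases before the start. The Ptprc window held a PU.1 core on the strand shown, 158 bases before the start. It also held a TATA box match on the opposite strand, 187 bases before the start. The Ptpro window and the Ptpre window shown held none of the 5 motifs. The windows at the other 2 starts of Ptpre held a PU.1 core, a STAT site, an AP-1 site and a TATA box. The window at the other start of Ptpn22 held a PU.1 core and a STAT site, and that of Ptprc held none of the 5 motifs. Over the 15 windows of the 9 genes with an entry (all but Ptpn2), the PU.1 core was in 8 windows of 6 genes, against 23.2% of the 32851 windows of the table. A STAT site was in 3 windows (7.02% of all windows), a TATA box in 2 (12.4%), an AP-1 site in 1 (6.75%) and an NF-kB site in 0 (3.72%), and no match overlapped another. The windows also differed in base composition, with 53.6% G and C for Ptpro, 49.2% for Ptpn22, 31.6% for Ptprc and 66% for Ptpre, against a median of 52.4%. These letters describe the sequence alone.

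Ptpro, a receptor-type enzyme known from kidney podocytes and also made by macrophages, had the lowest ratio of the 10. Its normalised log2 intensity was 9.19, 9.14 and 9.10 in treated cells on replicates 1, 2 and 3, against 12.62, 12.59 and 12.54 in untreated cells. The ratios were -3.43, -3.46 and -3.44, a mean of -3.44 ± 0.011 (SD, n = 3 arrays), or 10.9-fold lower in treated cells. The arrays thus differed by 0.023 on the log2 scale, whichever dye held the treated RNA. Only 6 of the 13181 tested genes had a lower mean ratio.

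Ptprc encodes CD45, the abundant phosphatase of white blood cells that removes the inhibitory phosphate of Src-family kinases. Its log2 intensity was 12.43, 12.26 and 12.64 in treated cells and 12.83, 13.10 and 12.79 in untreated cells. The ratio was -0.41, -0.84 and -0.15, with a mean of -0.46 ± 0.35 (SD, n = 3 arrays). The groups did not overlap, but the array with treated RNA in Cy5 (replicate 2) gave the lowest ratio, and the mean of the arrays with treated RNA in Cy3 was -0.28.

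Ptprj encodes CD148, which shares substrates with CD45 in macrophages and B cells, and its 4 probes did not give the same value. The brightest had a log2 intensity of 10.001, 10.10 and 10.07 in treated cells, against 11.12, 11.15 and 11.18 in untreated cells. Its ratios of -1.12, -1.05 and -1.11 averaged -1.10 ± 0.036 (SD, n = 3 arrays). The other probes, in order of falling intensity, averaged -0.61 ± 0.27, 0.07 ± 0.069 and -0.32 ± 0.17, so that the mean over all probes was -0.49. Treated and untreated readings of the probe at 0.07 overlapped, and both annotated accessions had a probe on either side of -0.5. Where these probes lie on the transcript was not analysed here.

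Ptprs, a receptor of the LAR subfamily that binds proteoglycans on neurons and other cells, was lower in treated cells on every array. Log2 intensities were 9.69, 9.70 and 9.42 in treated cells and 10.92, 10.58 and 10.98 in untreated cells. The ratio was -1.23, -0.88 and -1.56, with a mean of -1.22 ± 0.34 (SD, n = 3 arrays). Replicate 2 was the least negative here, in contrast to Ptprc.

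Ptpre, which makes a membrane-bound and a cytosolic enzyme, was the receptor-type gene with a higher level in treated cells. It read 10.98, 10.86 and 10.74 in treated cells and 10.55, 10.31 and 10.52 in untreated cells on the log2 intensity scale. The ratio was 0.44, 0.54 and 0.22, a mean of 0.40 ± 0.16 (SD, n = 3 arrays), or 1.32-fold.

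**Figure D2:**
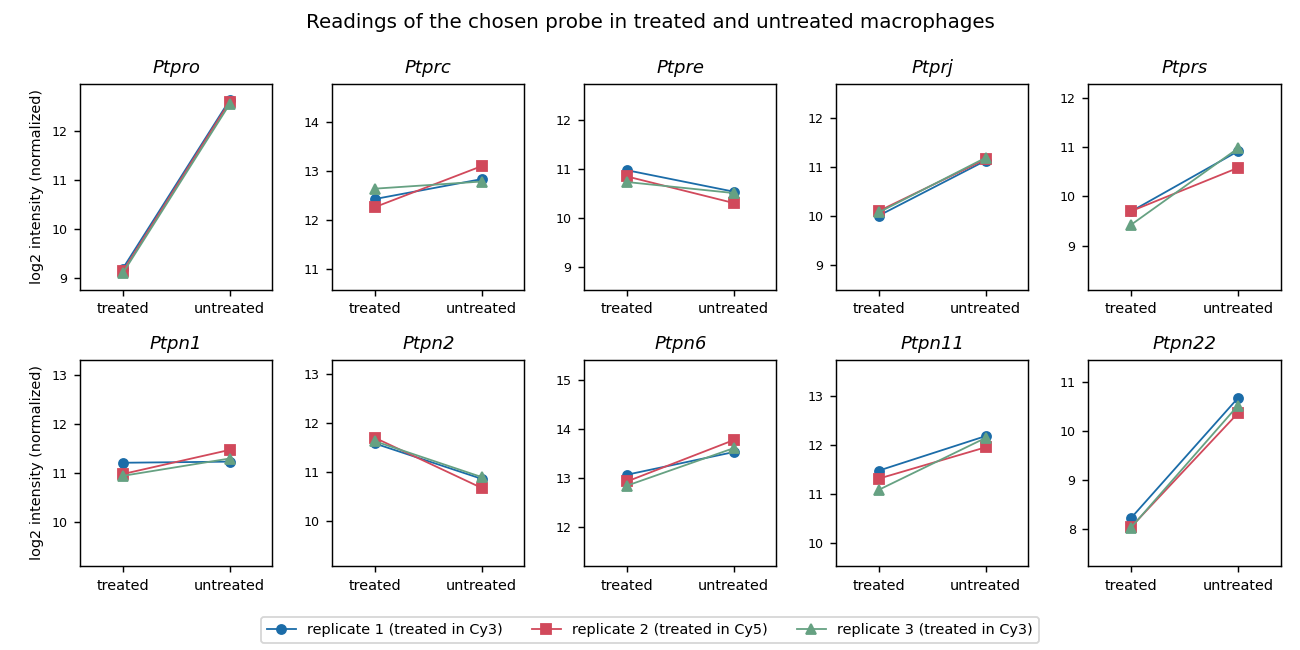
Normalised log2 intensity (vertical axes, equally tall on the log2 scale) of the brightest probe of each gene in treated and untreated macrophages, with a line for each of the 3 arrays. The lines of Ptpro and Ptpn22 are steep and close together, those of Ptpn2 and Ptpre run the other way, and the line of Ptpn1 is nearly flat on replicate 1 alone.

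Ptpn22 had the lowest ratio of the non-receptor genes. It encodes an enzyme of blood cells that binds the kinase Csk and, in T cells, dampens antigen receptor signals. Treated cells read 8.22, 8.04 and 8.03 on the log2 intensity scale and untreated cells 10.66, 10.36 and 10.51. The ratios of -2.44, -2.32 and -2.48 averaged -2.42 ± 0.086 (SD, n = 3 arrays), or 5.33-fold lower in treated cells, and 65 tested genes had a lower mean.

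Ptpn6 and Ptpn11 encode SHP-1 and SHP-2, a related pair that dock by SH2 domains on phosphorylated receptors and adaptors. SHP-1 mostly dampens signals in blood cells, and SHP-2 mostly promotes signalling through Ras. Ptpn6 read 13.06, 12.92 and 12.84 in treated cells and 13.52, 13.77 and 13.60 in untreated cells, with a mean log2 ratio of -0.69 ± 0.20 (SD, n = 3 arrays). Ptpn11 read 11.48, 11.32 and 11.09 in treated cells and 12.18, 11.95 and 12.15 in untreated cells, with a mean log2 ratio of -0.80 ± 0.23. Both were lower on every array, Ptpn6 at -0.46, -0.84 and -0.76 and Ptpn11 at -0.70, -0.64 and -1.06, and the ranges of the pair overlapped.

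Ptpn1 and Ptpn2 encode PTP1B and TC-PTP, close relatives that act on insulin receptors and JAK kinases, and they had opposite signs. Ptpn1 read 11.20, 10.97 and 10.94 in treated cells, against 11.23, 11.47 and 11.29 in untreated cells. Its ratio was -0.02, -0.49 and -0.35, a mean of -0.29 ± 0.24 (SD, n = 3 arrays), while its dimmer probe averaged -0.0025 ± 0.15 with overlapping readings. The mean of the brighter probe was -0.19 without replicate 2, -0.42 without replicate 1 and -0.19 at a normexp offset of 0.

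Ptpn2 read 11.59, 11.71 and 11.64 in treated cells, against 10.87, 10.68 and 10.91 in untreated cells. The ratio was 0.72, 1.02 and 0.73, a mean of 0.82 ± 0.17 (SD, n = 3 arrays), or 1.77-fold. Its other probes averaged 1.10 ± 0.073 and 1.20 ± 0.41, so all 3 probes were higher in treated cells on all arrays. The dimmest depended on the background correction, with 2.23 at a normexp offset of 0, against 2.83 for the ratio made by the scanner software.

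**Figure D3:**
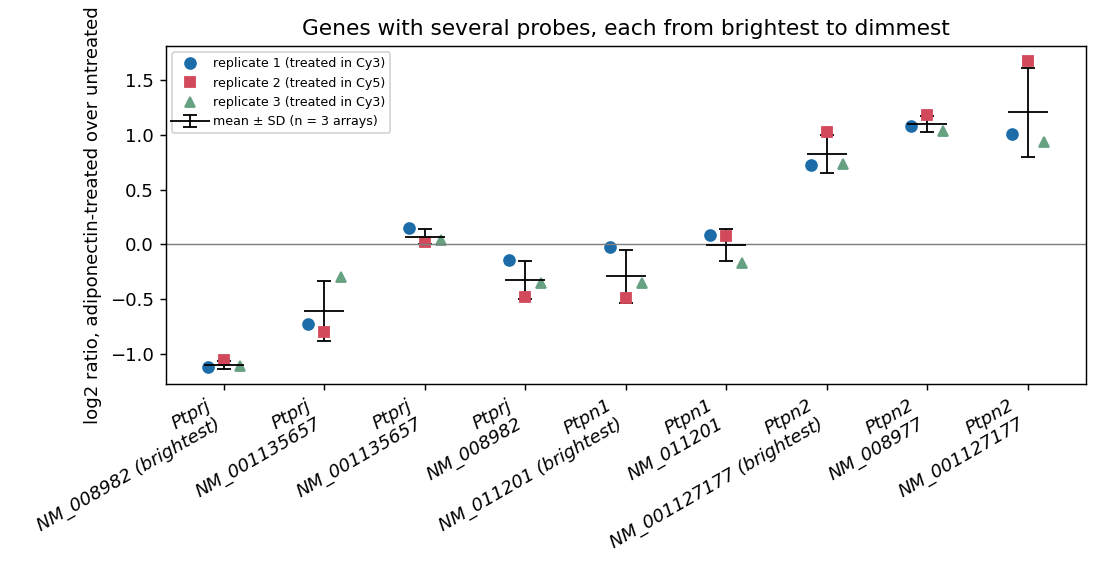
Log2 ratio of treated over untreated cells (vertical axis) for every probe of the genes with more than one, labelled with the accession each probe carries and ordered within a gene from brightest to dimmest, with the mean ± SD of 3 arrays. The Ptprj probes spread from -1.10 to 0.07, and the Ptpn2 probes all lie above 0.

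The other classical phosphatases were mostly too dim to measure. All 16 probes of the 10 genes above, which were picked with results of these data known, were well above background in all 6 channel readings. Of 28 other family genes, 9 were measured. Of the other 19, 1 had no matched probe, 14 had no reading well above background and 4 had 1 or 2 such readings. Of the 9 measured, 2 rose and 6 fell in limma (24.5% and 46.1% of all tested genes), with a median of -0.52. Replicates 1, 2 and 3 gave -1.73, -1.97 and -1.73 for Ptpn18, a phosphatase of the PEST group that fell most (-1.81 ± 0.088, moderated SE, n = 3 arrays; limma adjusted p = 6.34e-07). Ptpn7, a phosphatase of MAP kinases in blood cells, fell by 1.65 ± 0.084 on the log2 scale (limma adjusted p = 7.47e-07), though its dimmer probe was at -0.37. Ptpra, a receptor type that activates Src, fell by 1.54 ± 0.087 (limma adjusted p = 1.33e-06). Ptpn9 and the PEST-group gene Ptpn12 fell by 0.87 ± 0.080 and 0.52 ± 0.094. Ptpn23, which works in endosomal sorting, rose by 0.70 ± 0.12 (limma adjusted p = 0.000979), with 0.32 on replicate 2 against 0.90 and 0.89, and Ptpn14 rose by 0.54 ± 0.085. The lowest of these ratios was above that of Ptpro or Ptpn22 on every array. That comparison carries no weight, because the 10 genes were picked with their response known.

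**Figure D4:**
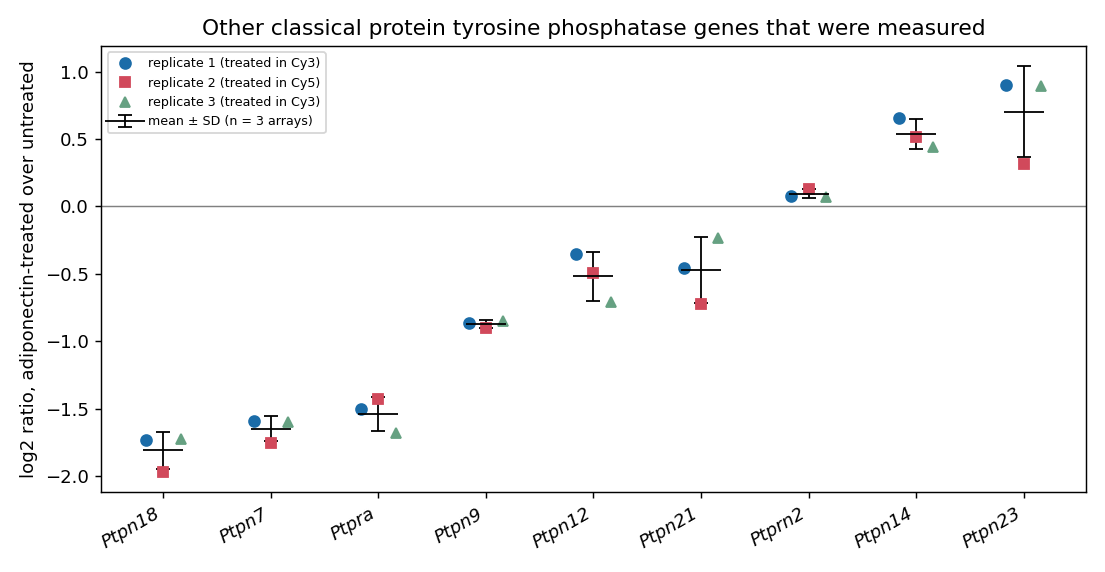
Log2 ratio of treated over untreated cells (vertical axis) for the 9 other classical phosphatase genes that were measured, one symbol per array, with the mean ± SD of 3 arrays. Ptpn18, Ptpn7 and Ptpra lie between -2 and -1.4, and Ptpn14 and Ptpn23 above 0.

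Tyrosine kinases, which the phosphatases oppose or act on, moved both ways. Of 28 measured kinases of 30, 6 rose and 15 fell in limma, with a median of -0.33, beside 24.5% and 46.1% of all tested genes. Csk, the kinase that inhibits Src-family members and partner of Ptpn22, gave -1.19, -1.35 and -1.29 and fell by 1.28 ± 0.082 in log2 ratio (moderated SE, n = 3 arrays; limma adjusted p = 2.66e-06). Src, the founding member of that family, was well above background in treated cells on 3 of 3 arrays and in untreated cells on 1 of 3. The size of its rise depended on the background handling, at 0.75 here, 1.16 in the authors' deposited table, 1.79 at a normexp offset of 0 and 2.69 for the ratio made by the scanner software. Among receptors, Mertk, a receptor in the uptake of dying cells, fell by 2.05 ± 0.097. Csf1r, the CSF-1 receptor, had -1.89, -1.17 and -2.32 and fell by 1.79 ± 0.18, with -0.97 and -0.71 for its dimmer probes. Insr, the insulin receptor and a substrate of PTP1B, fell by 1.27 ± 0.11, with -0.31 and -0.29 for its dimmer probes. Btk fell by 1.52 ± 0.13, while Jak2, another PTP1B substrate, rose by 0.65 ± 0.080. The adhesion kinase gene Ptk2b rose by 0.98 ± 0.12 and the receptor gene Met by 0.52 ± 0.093. Mertk and Csf1r also stand among the macrophage markers.

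Receptors and adaptors on which SHP-1, SHP-2 and related signalling proteins dock also moved both ways. Of 27 measured of 30, 9 rose and 12 fell in limma, with a median of 0.02, beside the same 24.5% and 46.1% of all tested genes. Centring the arrays on the tested genes gave 13 higher and 7 lower, beside 4639 higher and 4837 lower of all 13181 tested genes. Dok2, an adaptor that restrains Ras, fell by 2.45 ± 0.084 in log2 ratio (moderated SE, n = 3 arrays; limma adjusted p = 1.23e-07). Lair1, an inhibitory collagen receptor, fell by 2.37 ± 0.091, with -0.81 for its dimmer probe. Sirpa, the receptor for the "do not eat me" signal CD47, fell by 1.33 ± 0.087. Pirb, which has close sequence relatives that its probe may also bind, fell by 0.67 ± 0.081, and the adaptor gene Skap2 by 0.57 ± 0.087. Fcgr2b, the inhibitory Fc receptor, gave 1.87, 2.18 and 2.40 and rose by 2.15 ± 0.11 (limma adjusted p = 7.76e-07). The SHP-2 docking adaptor gene Gab2 rose by 1.53 ± 0.11 and the insulin receptor substrate gene Irs2 by 1.09 ± 0.081. Pstpip2 and Dok1 rose by 0.94 ± 0.084 and 0.53 ± 0.090, with 0.45 for the dimmer probe of Pstpip2.

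No processing alternative other than median centring changed the sign of the mean ratio of any of the 10 genes. With loess, 65.3% of all calls were lower in treated cells, and 51.0% were after the arrays were centred on the tested genes. Under that centring the mean of Ptprc was -0.29 and that of Ptpn1 -0.12. When median centring replaced loess, the median of all tested genes was -1.03, and Ptpre and Ptpn2 were at -0.78 and -0.35. They remained the genes of the 10 above that median, by 0.24 and 0.67, against 0.57 and 0.99 with loess. The difference of Ptpro from that median was -3.60 with median centring and -3.28 with loess.

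**Figure D5:**
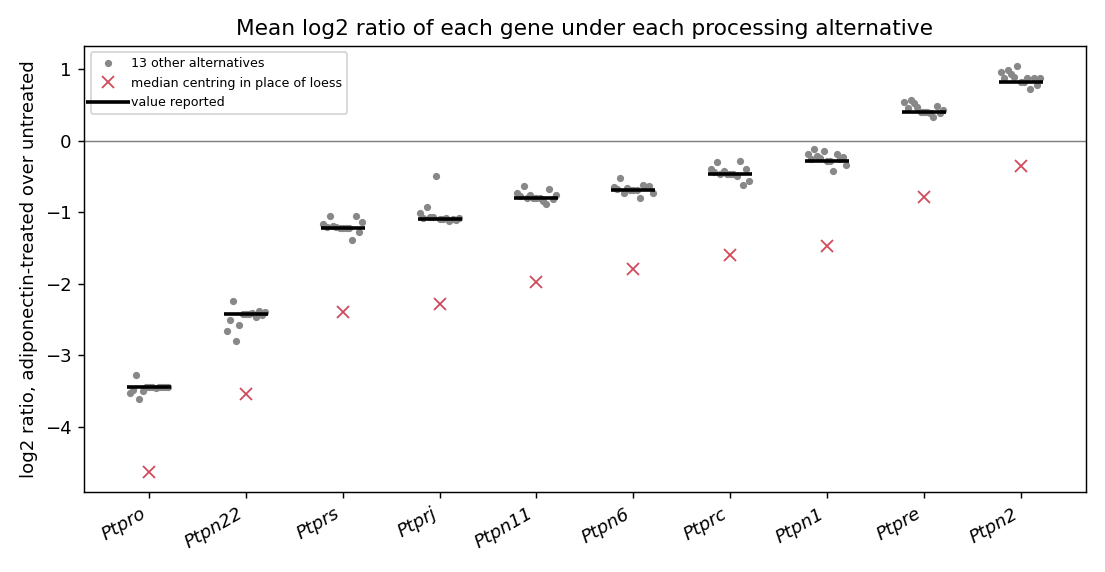
Mean log2 ratio of treated over untreated cells (vertical axis) of each gene as reported (black bar), under 13 other processing alternatives (grey points) and with median centring in place of loess (red crosses). Without median centring, Ptpro stays between -3.60 and -3.27 and Ptpn22 between -2.80 and -2.25, while the crosses lie lower for all 10 genes.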

How the data were processed

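The deposited intensity values are, per the file headers, unnormalized medians of each spot and its local background in Cy3 and Cy5, quantified with Agilent Feature Extraction 10.7.3.1. The deposited log10 ratio is, per the file headers, Cy5 over Cy3 after the scanner software's background subtraction and dye normalization. The authors' deposited log2 table has no stated method. Against treated over untreated loess ratios made with no background correction it gave r = 0.993, 0.990 and 0.991 (column medians -0.00041, -0.0049 and -0.00064), so it is already turned that way, and its background handling is unknown.

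Signals were corrected with normexp (offset 50), loess-normalized within arrays and fitted in limma 3.58.1 (R 4.3.3) with lmFit and eBayes against 0, with Benjamini-Hochberg adjustment over 13181 genes. Controls had weight 0, outlier spots were left out, and no spot was saturated. Probes well above background in at least 3 of 6 channel readings were kept, and the brightest stood for a gene. One label text gives the adiponectin dose in mg/ml, and the unit of the treatment text (µg/ml) is used. Channel levels were Aquantile-normalized. Of 55681 probes, 27235 matched a symbol in RefSeq (GRCm38.p6). All 3 arrays shared 1 slide and 1 scan. The fit was tested on simulated data. Members and gene lists were chosen with earlier results of these data known. Text names every member and, of each other list, up to 5 called genes with the largest rise and 5 with the largest fall; 1 kinase gene is not reported here. The number of arrays limits the precision.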

Additional observations from a re-analysis of the deposited data

How the results depend on the processing

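Under the 13 alternatives other than median centring, no mean of the 10 phosphatase genes and none of the 26 other named genes changed sign, and counts of calls over all genes and in the 3 other lists stayed within 1.5 times, with 3 exceptions. These were the docking receptors and adaptors called lower, 12 as reported and 7 with a normexp offset of 0, with centring on the tested genes and for the ratio made by the scanner software. When median centring replaced loess, limma called 0 genes in each direction among all genes and in each list (216 higher and 5101 lower at an unadjusted p under 0.05 over all genes). The tested genes then had medians of -1.48, -0.060 and -1.67 on replicates 1, 2 and 3. Under that setting Ptpre (-0.78), Ptpn2 (-0.35), Ptpn23 (-0.45), Ptk2b (-0.13), Jak2 (-0.51), Irs2 (-0.091), Pstpip2 (-0.20) and Dok1 (-0.60) turned negative, and the cause was not tested. Leaving out 1 replicate gave 2761 to 3148 genes higher and 5369 to 6143 lower. Sizes moved by over 1.5 times for some genes. A normexp offset of 0 and the ratio made by the scanner software gave 1.12 and 1.47 for Ptpn14, 1.04 and 1.33 for Met, 2.31 and 2.50 for Gab2, -2.03 and -2.26 for Insr and 1.79 and 2.69 for Src. The mean over probes gave -0.49 for Ptprj, -0.15 for Ptpn1, -1.01 for Ptpn7, -1.16 for Csf1r and -0.62 for Insr. Without replicate 2 Ptprc was at -0.28 and Ptpn1 at -0.19. Dye orientations were unequal, and a fit with the dye as a term (1 residual degree of freedom) put Ptprc at -0.56 and Ptpn1 at -0.34. The fit of within-array ratios is itself paired, since each sets a treated against an untreated sample on the same array.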
